A study of Homo sapiens with 2 samples.

Results

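The MIR23A locus is the stretch chr19:13900000-14000000 (hg19), which holds the microRNA genes MIR23A, MIR27A and MIR24-2 and their host transcript MIR23AHG. Its loops were described in H3K27ac HiChIP of HCT116, an established human colorectal carcinoma cell line. A loop of the locus was a row of the deposited count tables with 2 different anchors, anchor midpoints up to 2 Mb apart and at least 1 anchor overlapping the locus. The loops were therefore selected on their own count, which had to be 1 or more in a replicate, and the locus was itself chosen with its counts in these data known. Of 1017526 loops in replicate 1 and 1156897 in replicate 2, 186 and 216 belonged to the locus, or 337 of 1973472 when both replicates were combined. The samples formed 1 group of 2 replicates, which the labels number without stating separate cultures, so the spread between them may be technical. The labels name no treatment and no second condition. Chromatin was cut with MboI and immunoprecipitated with an H3K27ac antibody, so a count is a ligated contact enriched for acetylated histone H3 lysine 27, found at active enhancers and promoters.

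A microRNA cluster is transcribed as 1 long RNA, from which Drosha and Dicer release hairpins and then mature strands. A mature strand guides Argonaute to messenger RNAs that pair with its seed, and the target is then repressed. The cluster of MIR23A, MIR27A and MIR24-2 is known from work on blood cells, muscle and several carcinomas, and a paralogous cluster of MIR23B, MIR27B and MIR24-1 lies on chromosome 9. The mature sequences from RefSeq (GRCh38.p14) are given because the seed, bases 2 to 8 in capitals, shows what the 2 clusters share.
miR-23a-3p: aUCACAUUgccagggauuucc
miR-23b-3p: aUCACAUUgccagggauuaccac
miR-27a-3p: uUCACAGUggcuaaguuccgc
miR-27b-3p: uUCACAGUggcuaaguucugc
miR-24-3p: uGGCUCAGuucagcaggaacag
miR-23a-5p: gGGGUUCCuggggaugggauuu
miR-27a-5p: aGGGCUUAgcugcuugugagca
miR-24-2-5p: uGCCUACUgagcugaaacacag
The seed UCACAUU of miR-23a-3p occurred in 3 mature microRNAs of the table, which were miR-23a-3p, miR-23b-3p and miR-23c. The seed UCACAGU of miR-27a-3p was shared with miR-27b-3p and miR-9985. Counted from the 5′ end, 20 of 21 bases were the same in miR-23a-3p and miR-23b-3p, and 20 of 21 in miR-27a-3p and miR-27b-3p. MIR24-2 and MIR24-1 give the same miR-24-3p, whose sequence does not tell which cluster made it, whereas the loops are assigned by position.

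Exact matches of the RefSeq hairpins to GRCh37 placed MIR24-2 at chr19:13947101-13947173, MIR27A at chr19:13947254-13947331 and MIR23A at chr19:13947401-13947473, all on the minus strand within 373 bases. They lie in the single exon of the long noncoding host transcript MIR23AHG (ENSG00000267519.6_11, chr19:13934694-13953742, minus strand), whose start is 6269 bases upstream of the MIR23A hairpin. None of the 3 hairpins overlapped an anchor. The gap between the flanking anchors was 4740 bases long and contained 14 MboI sites (GATC), so no loop of these tables could end on the microRNA genes themselves. The flanking anchors were anchor 5, in the exon of the host transcript and 1301 to 1601 bases from the hairpins, and anchor 6, which holds the host start and lay 3068 to 3368 bases away. MIR181C and MIR181D, which make another microRNA pair of the locus at chr19:13985513-13985825, also lay between anchors.

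The host promoter is shown because it lies at the annotated start of MIR23AHG and an anchor covers it. Whether the cluster is transcribed from this start was not tested. Matches of the GC box GGGCGG (either strand) are in capitals. The sequence runs from 250 bases before to 50 bases after the start as given by RefSeq (GRCh38.p14). It was matched here to chr19:13953683-13953982 of GRCh37, minus strand.
MIR23AHG promoter: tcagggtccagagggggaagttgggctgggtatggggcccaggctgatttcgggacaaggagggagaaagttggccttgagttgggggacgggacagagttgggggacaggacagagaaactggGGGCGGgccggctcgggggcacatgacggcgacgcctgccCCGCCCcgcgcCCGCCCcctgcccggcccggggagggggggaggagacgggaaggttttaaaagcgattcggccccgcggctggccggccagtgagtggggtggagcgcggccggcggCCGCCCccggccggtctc
The promoter of IER2, an immediate early gene, is shown with the same marking, at chr19:13260975-13261274, plus strand. It was 1 of the 2 promoters, with that of STX10, in the anchor at the far end of the longest of the strong loops.
IER2 promoter: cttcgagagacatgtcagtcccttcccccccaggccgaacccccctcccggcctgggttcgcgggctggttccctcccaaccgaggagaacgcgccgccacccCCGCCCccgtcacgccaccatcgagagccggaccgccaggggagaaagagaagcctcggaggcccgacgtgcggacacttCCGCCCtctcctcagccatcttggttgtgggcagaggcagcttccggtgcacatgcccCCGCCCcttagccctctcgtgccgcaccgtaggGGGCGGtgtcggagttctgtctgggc
Each sequence contained 4 GC boxes. At least 1 occurred in 45.0% of the 35116 promoters of the same length in the table, and the share with 4 was not computed. Their GC content was 72.3% and 69.7%, with a median of 58.7% over the table. The STX10 promoter, which overlaps that of IER2 and is not shown, had 3 GC boxes and a GC content of 59.7%. None of the 3 promoters contained the AP-1 motif TGANTCA, present in 7.71% of the promoters, or the E-box CACGTG, present in 7.26%. ZSWIM4 had no entry.

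Depth was similar in both replicates. The tables summed to 1885481 and 2131466 counts, of which 1187130 and 1369538 belonged to loops of up to 2 Mb, and 88.7% and 87.9% of these loops had a count of 1. Intervals given below are exact 95% intervals and cover counting error only, since the tables hold no molecular identifiers. Copy number was not corrected.

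The locus held 13 anchors, which covered 39.3% of its length and are numbered here from the lowest position upwards. Anchor 1 (chr19:13902039-13909919) holds the start of ZSWIM4, a zinc finger gene, and anchor 6 (chr19:13950541-13954504) holds the start of MIR23AHG. Anchor 7 (chr19:13956195-13966080), the widest with 9886 bases and 34 MboI fragments, begins 2453 bases upstream of the host start and overlaps no gene of GENCODE. NANOS3, a regulator of germ cells, starts in the locus at position 13987948, in no anchor.

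Anchor 7 had the highest counts of the locus, none of them scaled by anchor width. It spans 9886 bases against 2542 for the median anchor of the genome, and 1.79% of anchors are at least as wide. Anchor 8, with 1724 bases, had loop counts of 40 and 47. The loops of anchor 7 had counts of 164 and 192 in replicates 1 and 2, to 72 and 78 partners, which was 53.3% ± 0.621 (SD, n = 2) of all loop counts of the locus. The median anchor of the genome had 8 and 9. Pairs with both ends inside anchor 7 numbered 136 and 144, the highest and the second highest of all 250222 anchors, and the highest when the replicates were summed. The host anchor 6 had loop counts of 52 and 67 and same-anchor counts of 6 and 13, and the ZSWIM4 anchor 1 had 50 and 51 and 8 and 8. The other 10 anchors had loop counts between 5 and 47 per replicate. The values of the replicates lay close for the deep anchors, and in anchor 11 they were 9 and 23.

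**Figure D1:**
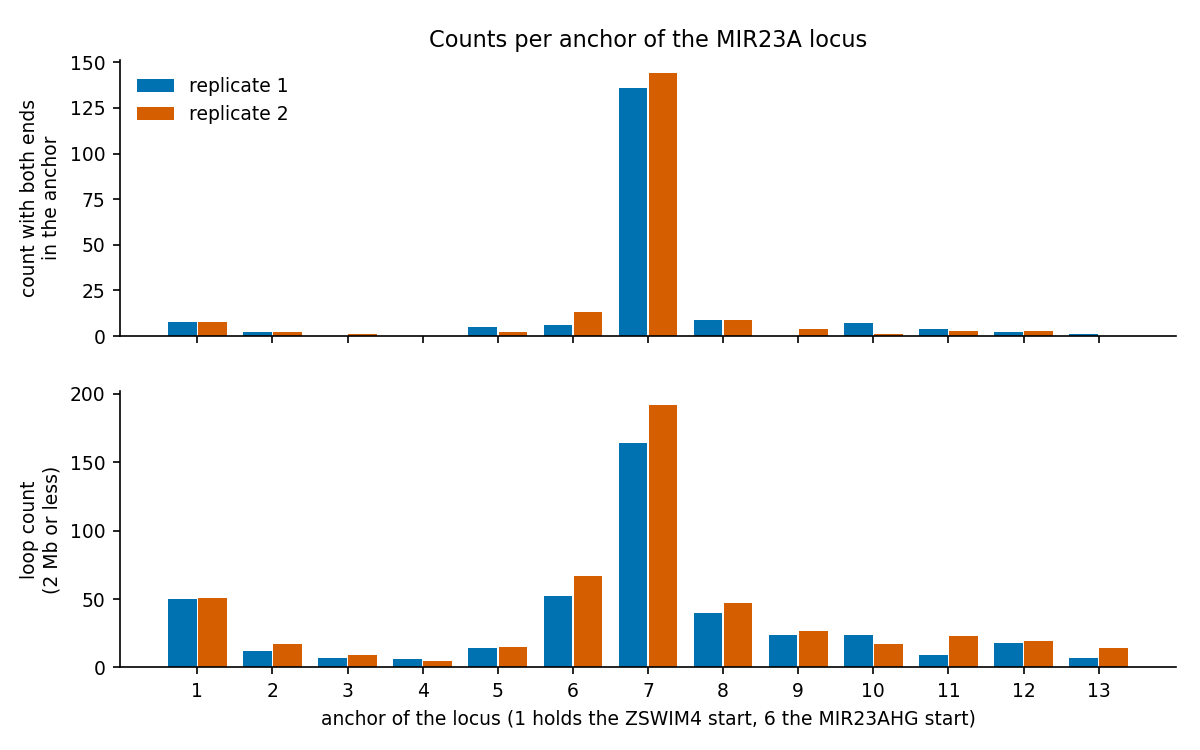
Counts with both ends in an anchor (top) and loop counts up to 2 Mb (bottom) for the 13 anchors of the locus, with bars from 0 for replicate 1 (blue) and replicate 2 (orange). Anchor 7 reaches 136 and 144 in the upper panel and 164 and 192 in the lower one, above every other anchor of the locus.

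AP-1 matches were searched in the anchors because AP-1 is a factor of many epithelial enhancers. Anchor 7 contained 8 matches of TGANTCA (a motif that reads the same on both strands), or 0.809 per kb, against 0.273 per kb over all 4706 anchors of chromosome 19. Of the 34 anchors of the chromosome that are at least as wide, 94.1% had a match, their median was 0.194 per kb, and 0 had a higher density. A match is a run of letters and not a measured binding site. The 2 closest matches of anchor 7, in capitals, lie at chr19:13962080-13962199 (GRCh37, plus strand).
Anchor 7 segment: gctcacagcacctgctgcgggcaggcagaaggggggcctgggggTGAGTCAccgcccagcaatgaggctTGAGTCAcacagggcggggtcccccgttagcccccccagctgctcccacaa
All 4706 anchors of chromosome 19 began and all 4706 ended at an MboI site.

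The number of loops of the locus was 186 (95% interval 160.2 to 214.7) and 216 (188.2 to 246.8), a mean of 201 ± 21.2 (SD, n = 2). Their counts summed to 305 and 363. A single count supported 77.4% and 78.7% of them. In all, 65 loops occurred in both replicates, which was 34.9% of those of replicate 1 and 30.1% of those of replicate 2, against 19.7% and 17.4% over the genome. The median loop length was 243 kb and 223 kb, or 233 kb ± 14.2 (SD, n = 2), compared with 143 kb and 149 kb over all loops. Within the locus there were 34 and 30 loops, and 42 of the 78 possible anchor pairs had a count in 1 replicate or both. These short loops were few but deep, with 122 and 140 counts, 39.3% ± 1.01 (SD, n = 2) of the total. Loops that left the locus towards lower positions had 91 and 105 counts, and those towards higher positions had 92 and 118, so neither side dominated.

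Strong loops, defined as those whose counts in both replicates summed to 5 or more, numbered 17 in the locus, or 5.04% of its loops, against 1.47% of all loops. Each of the 17 had counts in both replicates, 12 joined anchors within the locus and 12 had anchor 7 at an end. Of the loops under 20 kb 33.3% were strong (7.92% over the genome), of those between 20 and 100 kb 5.71% (0.996%), and of those over 500 kb 3 of 105 or 2.86% (0.014%). All 3 long ones ended on anchor 7. The threshold lay in the dense part of the distribution, with 7 loops at a summed count of exactly 5 and 13 at 4. Among 24048 windows of 100 kb with an anchor, 148 held more strong loops than the locus and the median window held 1. These shares describe a locus chosen for its counts.

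**Figure D2:**
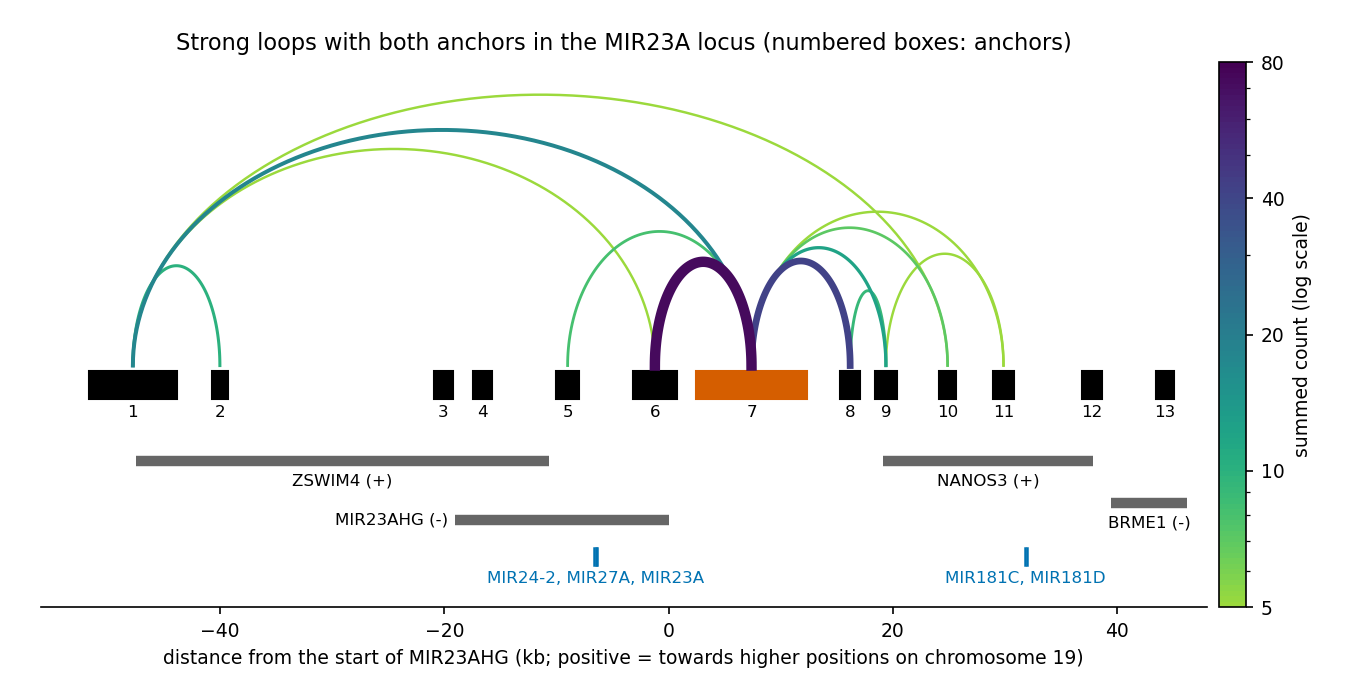
Map of the locus by distance from the host start in kb, with numbered anchors (anchor 7 in orange), gene bodies (grey) and hairpins (blue ticks), and 1 arc for each of the 12 strong loops within the locus, coloured and thickened by summed count on a log scale. The hairpins fall between anchors 5 and 6, and the thickest arc joins anchors 6 and 7.

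The strongest loop joined the host start in anchor 6 to anchor 7, 8.6 kb apart. It had 24 counts in replicate 1 and 50 in replicate 2, the 10th highest of the genome in sum. Replicate 2 was the higher one, and the split of its 74 counts differed from the genome-wide share of 46.4% in replicate 1 by an exact binomial test (two-sided, p = 0.0192), but not after Benjamini-Hochberg adjustment over 3189 loops with a summed count of 10 or more (adjusted p = 1), of which 120 had an unadjusted p under 0.05 and 0 an adjusted one. Anchor 7 met anchor 8, an intergenic anchor further upstream, 24 and 18 times over 8.8 kb. It met the ZSWIM4 promoter 11 and 7 times over 55.2 kb. The ZSWIM4 promoter itself met the host start 1 and 4 times over 46.5 kb, and had 4 and 1 counts with anchor 10 over 72.6 kb. Anchor 10 lies in the GENCODE span of NANOS3 but upstream of the start at position 13987948. The direction of the difference between replicates varied from loop to loop, and the ranges of the 2 replicates were wide below about 10 counts.

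**Figure D3:**
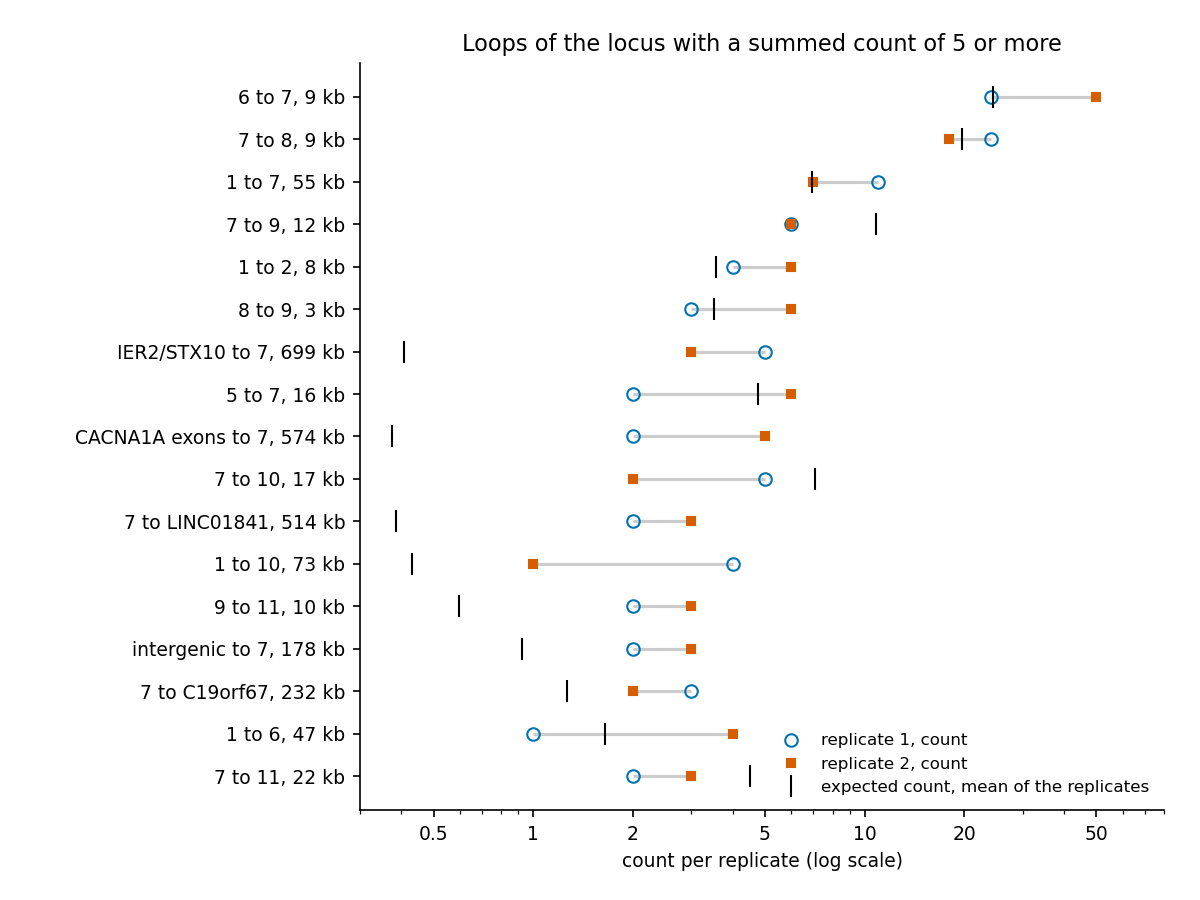
Counts of the 17 strong loops in replicate 1 (open circles) and replicate 2 (squares) on a log axis, with the mean expected count per replicate as a tick, named by anchor number or outside gene and by distance. The loop of anchors 6 and 7 had 24 and 50 counts, and the loops to IER2/STX10, CACNA1A and LINC01841 lie to the right of their ticks in both replicates.

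An anchor with many counts has many partners at every distance, so each pair was set against an expected count that depends on distance and anchor depth, with the pair itself left out of that depth. None of the 4854 anchor pairs of the locus was above expectation at an adjusted p under 0.01 (one-sided exact Poisson test, Benjamini-Hochberg over 51094602 pairs). The lowest adjusted p of the locus was 0.528, and 81 pairs had an unadjusted p under 0.05. Over the genome 13 pairs were called, or 2.54e-05% of those tested. With distance alone as the expectation, 11 pairs of the locus were called, all with anchor 7, and 0.01% of all pairs. For the loop of anchors 6 and 7 the expected counts were 32.2 and 16.5, 48.7 in sum, and the ratio was 1.52 (1.19 to 1.91). It was 0.746 (0.478 to 1.11) in replicate 1 and 3.03 (2.25 to 4.00) in replicate 2, so the replicates lay on different sides of expectation and replicate 2 alone gave a call (adjusted p = 0.000445 by the exact Poisson test). This loop made up 24 of the 52 and 50 of the 67 loop counts of anchor 6, and the expected counts rest on the remainder. Their error enters neither the intervals nor the adjusted p. The ratio lay above 1 for 13 of the 17 strong loops (76.5%) and its interval for 6 (35.3%), with a median of 1.52. The strong loops were chosen on the count that enters the ratio, and among all 28962 strong loops of the genome the shares were 86.2% and 26.3% and the median was 1.81, so these ratios are a description.

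**Figure D4:**
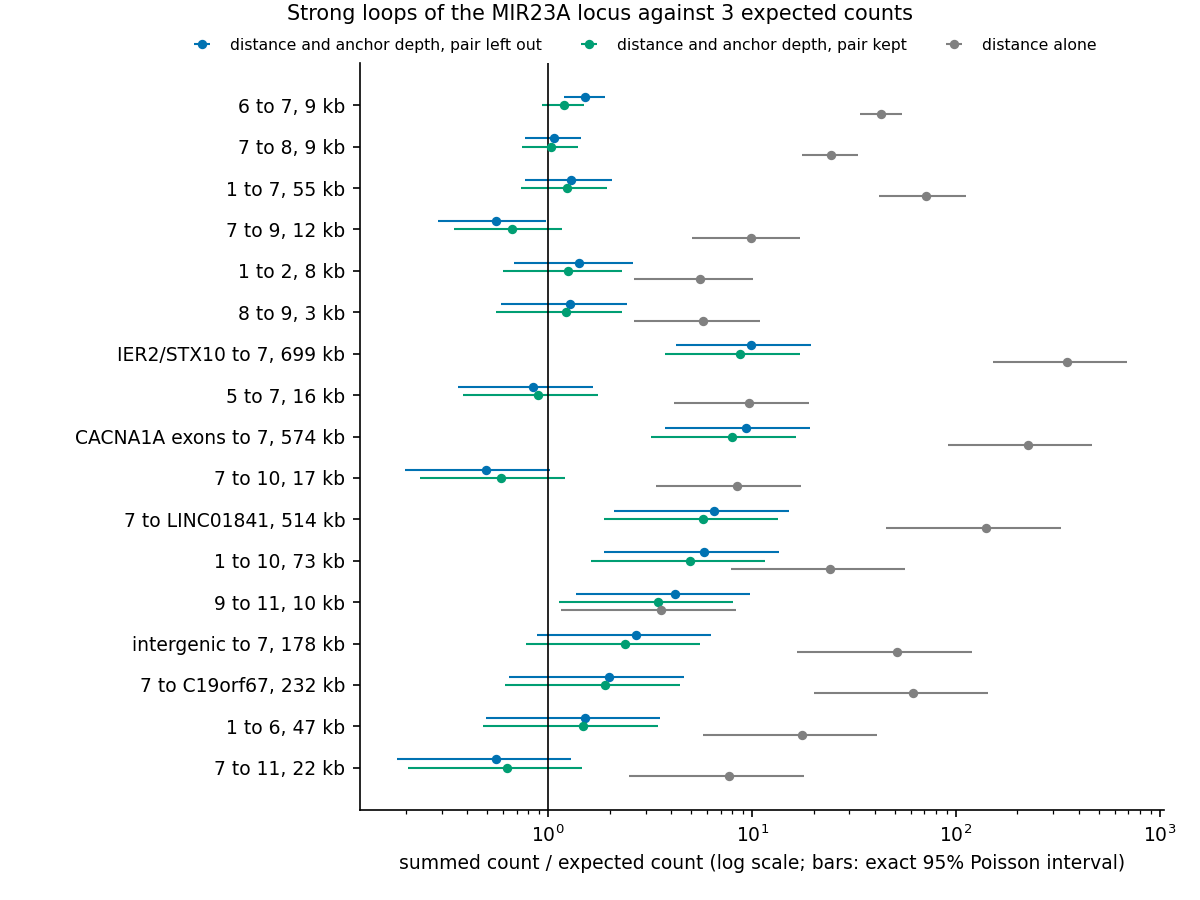
Summed count divided by expected count for the 17 strong loops on a log axis, with exact 95% Poisson intervals, for an expectation from distance and anchor depth with the pair left out (blue) or kept (green) and from distance alone (grey). Against distance alone all 17 ratios exceed 1, and against distance and depth 13 do.

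The highest ratios among the strong loops belonged to the 3 loops over 500 kb, all of anchor 7. A loop of this length needs a high ratio to reach a summed count of 5, and the median ratio of the 70 strong loops over 500 kb in the genome was 9.25. IER2, an immediate early response gene, and STX10, a syntaxin of Golgi transport, share a divergent promoter in 1 anchor (chr19:13260035-13264472), which met anchor 7 with 5 and 3 counts over 699 kb. The expected counts were 0.293 and 0.519, the ratio was 9.85 (4.25 to 19.4), and the adjusted p was 0.528 by the exact Poisson test. An anchor over exons 23 and 24 of CACNA1A (chr19:13385307-13389333), a calcium channel gene, had 2 and 5 counts over 574 kb, with a ratio of 9.32 (3.75 to 19.2). An anchor over the first exon of the noncoding gene LINC01841 (chr19:14473953-14476808) had 2 and 3 counts over 514 kb and a ratio of 6.49 (2.11 to 15.2). These loops had counts in both replicates and were not called by the test across all pairs.

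**Figure D5:**
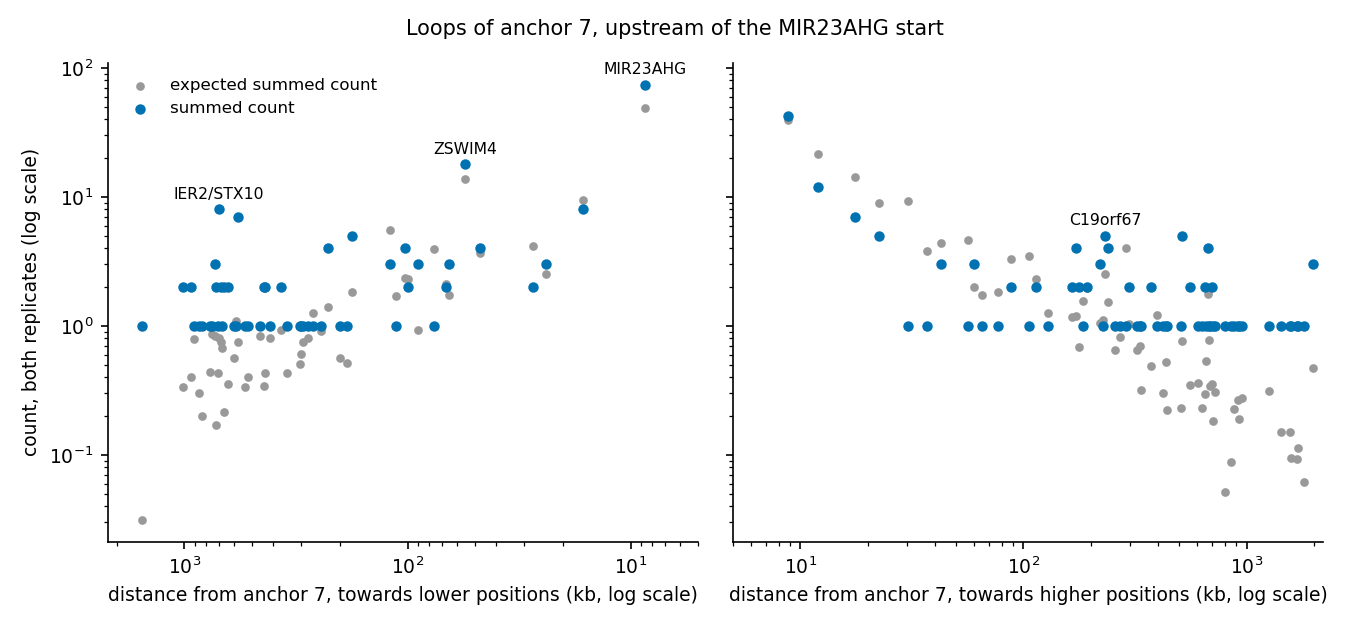
Summed count (blue) and expected summed count (grey) of the anchor pairs of anchor 7 with at least 1 count, against distance in kb towards lower (left) and higher (right) positions, both axes on a log scale. Pairs without a count are not drawn, so grey points at long distance come from pairs that had a count. The IER2/STX10 point, with a summed count of 8 at 699 kb, lies above the other points beyond 100 kb.

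A minority of the loops reached a promoter. The outer anchor, or either anchor of a loop within the locus, overlapped a protein-coding start ± 2500 bases in 60 of 186 loops (32.3%, exact binomial interval 25.6 to 39.5) and in 58 of 216 (26.9%, 21.1 to 33.3), a mean of 29.6% ± 3.82 (SD, n = 2). Of the 391 anchors in reach of the locus 86, or 21.99%, overlapped such a promoter. That share counts single anchors, unweighted by depth or distance, and is not the same measure as the share of loops. ZSWIM4 was the only protein-coding gene with its promoter in an anchor of the locus, with 101 summed counts.

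Of 18 protein-coding genes that start within 300 kb outside the locus, 15 had a promoter anchor, 14 of these had a loop to the locus and 11 had one in both replicates. The median ratio of the 15 to the expected count was 0.81, and 6 ratios were above 1. Genes that share an anchor were counted separately. The share of anchors without a promoter that had a loop at these distances was not computed. C19orf67 had the most, with 9 and 12 counts over 11 loops and a ratio to expectation of 2.27 (1.40 to 3.46). SAMD1, a chromatin reader of unmethylated CpG islands that shares 1 of its anchors, had 4 and 4 counts (ratio 2.19, 0.945 to 4.31). YJU2B, a homologue of the splicing factor YJU2, had 9 and 6 (1.24, 0.694 to 2.05), C19orf53 5 and 7 (1.03, 0.532 to 1.80), MISP3 2 and 5 (1.83, 0.735 to 3.77) and ASF1B, a histone chaperone, 6 and 1 (0.81, 0.325 to 1.67). C19orf67 was thus the only one of the 15 with an interval above 1, and the 15 intervals were not adjusted for their number. Neither of its 2 anchors held its start at position 14196595. The anchor at chr19:14191308-14195421 covered its exons 2 to 6. The anchor at chr19:14198932-14204059 held the SAMD1 start, and its 8 summed counts are also those given for SAMD1. PODNL1 had 4 and 2 counts and DCAF15, a substrate receptor of a ubiquitin ligase, 3 and 2. RFX1, a winged-helix transcription factor, had 1 and 2 counts where 10.2 were expected (ratio 0.293, 0.0605 to 0.858), and BRME1 and CC2D1A, whose divergent promoter is in 1 anchor, had 2 and 2 where 10.4 were expected (0.386, 0.105 to 0.987). RLN3, a relaxin peptide, had 0 and 2 counts (1.24, 0.15 to 4.47), and PRKACA, a catalytic subunit of protein kinase A, and the start of CACNA1A had 1 and 0 each, where 3.71 and 2.22 were expected. MRI1, IL27RA and PALM3 had no promoter anchor and SMIM46 had no count.

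The anchors on both sides of the hairpins had few counts with promoters. The 82 pairs of the host anchor 6 with anchors at protein-coding promoters held 6 and 5 counts where 6.64 and 8.63 were expected, a summed ratio of 0.72 (0.36 to 1.29). The depth behind these expected counts was 52 and 67 loop counts, of which 24 and 50 were the loop to anchor 7. The ratio without that loop in the depth was not computed. Counts with promoters were divided as follows. Anchor 6 had 5 with ZSWIM4, 2 with the IER2/STX10 promoter (1 and 1) and 1 with ASF1B. Anchor 5, the closer one, had 4 and 3 counts with promoters where 4.57 were expected in sum, a ratio of 1.53 (0.616 to 3.16), of which 3 and 1 were with ZSWIM4 (3.59, 0.978 to 9.19). Both intervals held 1. Anchor 7, with a summed loop count of 356, had a loop to 13 of the 15 promoters within 300 kb. The host anchor, with 119, had a loop to 1. Both totals include the 74 counts of the loop between these 2 anchors.

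Beyond 300 kb, 27 of 76 promoters with an anchor had a loop and 6 had one in both replicates. Here too, genes that share an anchor were counted separately. The share of anchors without a promoter that had a loop beyond 300 kb was not computed. The median ratio of the 76 was 0, and 19 ratios were above 1. Among the highest were STX10, IER2, DNAJB1, TRMT1, NACC1, ADGRE2, NDUFB7, RTBDN and MAST1. The IER2/STX10 promoter had 6 and 6 counts to the whole locus where 2.08 were expected (5.76, 2.98 to 10.1). DNAJB1, a heat shock co-chaperone, had 2 and 6 (2.01, 0.867 to 3.96). TRMT1, a transfer RNA methyltransferase, and NACC1, a transcriptional repressor, share an anchor with 2 and 2 counts (2.01, 0.547 to 5.14). A list of 33 genes of the neighbourhood held early response, red-cell and housekeeping genes and others. Of the 33, 27 had a promoter anchor, 20 of these a loop, 6 a loop in both replicates and 2 (IER2 and STX10) a strong loop. The median ratio of the 27 was 1.45, with 15 ratios above 1 and 2 intervals above it. Both intervals and the strong loop belong to the 1 anchor that IER2 and STX10 share. JUNB, an AP-1 subunit, CALR, a calcium-binding chaperone of the endoplasmic reticulum, and PRDX2, a peroxidase of red cells, had 0 counts where 1.62, 1.44 and 0.70 were expected. The ratio intervals of these zeros reached up to 2.28, 2.56 and 5.27. At this depth they could not be told apart from the expected counts.

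The paralogous MIR23B cluster on chromosome 9 was set beside the locus in a window of the same length. It had 104 and 115 loops, of which 2 were strong (0.971%), and its highest loop had 7 and 4 counts. Its most counted anchor had a summed same-anchor count of 4, against 280 for anchor 7. The window of MIR21, a microRNA gene abundant in carcinomas, had 166 and 180 loops with 23 strong ones (7.99%), a highest loop of 46 and 51, a highest summed same-anchor count of 199 and 2 called pairs, against 0 in the MIR23A locus. The window of MIR31 had 116 and 133 loops with 8 strong ones (3.74%), a highest summed same-anchor count of 31 and 0 called pairs. With 17 strong loops the MIR23A locus lay between the MIR21 and MIR31 windows, a description of windows picked by name.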

How the data were processed

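H3K27ac HiChIP was measured in 2 replicates of HCT116. The authors obtained valid pairs with HiC-Pro and loops with hichipper (versions and anchor settings are not given in the sources used here) and deposited, for each replicate, raw counts of paired-end tags between 2 anchors on hg19, not normalized and without pooling. The tables summed to 1885481 and 2131466 counts. A loop joined 2 different anchors whose midpoints lay within 2 Mb, and more distant pairs were left out. Genes came from GENCODE release 44 on GRCh37, with a promoter of the canonical start ± 2500 bases. The locus, the gene lists and the tests were chosen with earlier results of these data known. Genes named were those of the cluster, those that start within 300 kb, the 10 promoters further away with the highest counts (1 of them is not reported here), and called pairs; CACNA1A exons and LINC01841 were named after their values were seen, as strong loops, and anchor 5 was set against promoters after its counts were seen.

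The expected count was fitted in each replicate over all anchor pairs, zeros included, from 60 distance classes and anchor weights balanced in 20 rounds. The pair was left out of the counted and the expected depth of both anchors, with an offset of 0.5. A form that corrected only the counted depth was replaced after tests on simulated data, in which it called pairs that had not been raised, and after its call in the locus had been seen; it is kept as an alternative. The summed count was tested with a one-sided exact Poisson test and Benjamini-Hochberg adjustment, called at 0.01. Shares have exact binomial and counts exact Poisson 95% intervals. Alternatives were the distance limit, locus boundaries, minimum count, promoter width, weighting, expectation, adjusted p and leaving out a replicate. Python 3.11.15 was used with scipy 1.17.1, numpy 2.4.6, numba 0.67.0, pandas 2.3.3, matplotlib 3.10.9 and pysam 0.24.0.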

Additional observations from a re-analysis of the deposited data

How the results depend on the processing

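Of 50 values recomputed under the alternatives for the 6 summary results, 28 stayed within the replicate spread or within 1.5 times the count. For the median length and the promoter share, a single replicate always lies within the SD of the 2 replicates. Those leave-out values were therefore bound to be among the 28 and say nothing about stability. The mean number of loops, 201, was 124 in a narrower locus, 44 with a minimum count of 2 and 7 with 5. Strong loops, 17, were 44 at a summed count of 3, 5 at 10 and 6 to 8 with 1 replicate left out. Without anchor 7, an alternative chosen after seeing the data, 126 loops and 5 strong loops were left, with a median length of 191 kb. The median length of 233 kb was 250 kb in a narrower and 213 kb in a wider locus, 70.9 kb with a minimum count of 2 and 12.6 kb with 5. The promoter share of 29.6% was 34.6% in a wider locus, 35.04% with a minimum count of 2, and 21.8% and 39.3% with promoters of 1000 and 5000 bases each side. The count of called pairs, 0, was 11 with distance alone and 0 to 1 with 1 replicate left out. It was 1, the loop of anchors 6 and 7 (ratio 3.82, adjusted p = 7.29e-14 by the exact Poisson test), with the pair left out of the counted depth only, and 0 with the pair kept (ratio 1.19), with 30 distance classes and at adjusted p under 0.05 or 0.1. The ratio of the host anchor to promoters, 0.72, was 3.61 with distance alone and 0.58 to 0.90 with 1 replicate left out. Ratios of strong loops that crossed 1 with distance alone were those of anchor 7 with anchors 5 (9.62), 9 (9.86), 10 (8.41) and 11 (7.69), and that with anchor 5 was 1.23 with the counted depth only. With 1 replicate left out, the ratio ranged from 0.746 to 3.03 for anchors 6 and 7, 0.711 to 1.72 for 7 and 8, 0.962 to 1.67 for 1 and 7, 0.82 to 1.78 for 8 and 9, 0.359 to 1.52 for 5 and 7 and 0.612 to 2.41 for 1 and 6. The cause was not tested. No paired analysis was possible because there is 1 group. The depth limits all loops but the strongest few, as most rest on a single count.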

Other observations

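Pairs of the locus with anchors more than 2 Mb away on chromosome 19 were listed 141 times, with a highest summed count of 2, below the 3 counts that a count of 0 allows.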
